A study of Mus musculus with 36 samples.

Results

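Type I interferon-stimulated genes are the genes that cells switch on after interferon alpha or beta has bound its receptor. The 39 genes described here were chosen by symbol from textbook knowledge of the response, with earlier results of these data known. All 39 were found among the 30205 genes measured. They hold both receptor chains (Ifnar1, Ifnar2), the transcription factors Stat2, Irf9 and Irf7, the feedback inhibitor Usp18, and 33 effector genes that sense, tag or restrict foreign nucleic acid and viruses. RNA was sequenced from 36 cultures of bone cells of 20-week-old mice, wild type (WT) or lacking the microRNA gene Mir324 (null), with 6 libraries in each of 6 groups. Bone marrow macrophages (BMM) were marrow cells grown for 3 days in M-CSF at 100 ng/mL, the growth factor that keeps macrophages alive, and then for 5 days in M-CSF at 30 ng/mL. The cultures labelled osteoclasts (OC) were the same marrow macrophages kept for those 5 days in M-CSF at 30 ng/mL together with 50 ng/mL of RANK-L, the cytokine that turns macrophages into bone-resorbing osteoclasts. The cultures labelled osteoblasts (OB) grew out of collagenase-treated bone chips for about 6 weeks and then spent 18 days in osteogenic medium with 2 mM β-glycerophosphate and 50 µg/mL ascorbic acid. No interferon was added to any group according to the labels. Mouse strain, sex and the way the null allele was made are not given in the sources used here. The labels also do not say whether the 6 libraries of a group came from 6 mice, so p-values measure the spread between these libraries, which may in part be technical.

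As background, interferon alpha and beta bind a receptor built from the Ifnar1 and Ifnar2 chains, and the kinases on the receptor phosphorylate Stat2. It joins Irf9 in the complex ISGF3, which binds the interferon-stimulated response element in front of target genes, and Irf7 is both a target and an inducer of more interferon. Macrophages hold this program at a low level without infection, and in osteoclast precursors RANK-L is known to induce a small amount of interferon beta that restrains osteoclast formation.

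The response element has a recognisable core, so the promoters of the members were searched, on either strand, for GAAA, any 2 letters and GAAA again. RefSeq promoter sequences (GRCm38.p6, 250 bases before to 50 bases after a start site) were matched by symbol for 29 of the 39 members. The core was in 15 of those 29 promoters (51.7%), against 1074 of 26994 genes with a promoter of that length (3.98%). A match describes letters and does not show that a factor is bound. The 8 windows below lie before the start site and are printed 5′ to 3′ on the gene's strand, with each core match in capitals. They are a selection from the members with the core: the transcription factor Stat2, the ubiquitin-like modifier Isg15, 5 antiviral effectors and the surface protein Bst2. Other members with large changes below are not among them. Irf7, for example, had no core in its promoter, and Oas2 and Ifi27l2a had no promoter entry.
Stat2: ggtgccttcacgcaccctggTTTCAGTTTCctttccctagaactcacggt
Isg15: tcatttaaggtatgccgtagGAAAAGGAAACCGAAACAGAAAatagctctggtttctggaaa
Ifit1: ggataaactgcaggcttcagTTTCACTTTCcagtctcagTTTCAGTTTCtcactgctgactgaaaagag
Ifit3: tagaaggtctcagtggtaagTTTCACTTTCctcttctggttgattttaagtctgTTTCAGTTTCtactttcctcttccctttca
Ifit3b: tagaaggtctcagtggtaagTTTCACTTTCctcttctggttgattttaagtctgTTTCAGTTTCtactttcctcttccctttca
Oas3: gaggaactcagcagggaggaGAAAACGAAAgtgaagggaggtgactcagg
Rsad2: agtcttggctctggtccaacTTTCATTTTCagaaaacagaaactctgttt
Bst2: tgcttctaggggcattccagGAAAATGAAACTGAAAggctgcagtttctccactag

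The windows lie at chr10:128270256-128270305 (plus strand) for Stat2, chr4:156200855-156200916 (minus) for Isg15 and chr19:34640765-34640833 (plus) for Ifit1. Those of Ifit3 and Ifit3b lie at chr19:34583353-34583436 and chr19:34607749-34607832, both on the plus strand. Oas3 is at chr5:120777705-120777754, Rsad2 at chr12:26456543-26456592 and Bst2 at chr8:71537567-71537622, all on the minus strand. The windows of Ifit3 and Ifit3b are the same 84 letters, and each holds 2 cores. Isg15 holds 3 cores that overlap, Bst2 holds 2 that overlap, and Stat2, Oas3 and Rsad2 hold 1 each. Near-identical copies also share transcript sequence: 61.8% of the 31-base stretches of Ifit3 were in Ifit3b transcripts and 68.8% of those of Oas1a were in another gene, nearly all of them in Oas1g. Values of Ifit3, Ifit3b, Oas1a and Oas1g, and to a lesser degree Ifi204 (33.6% shared with other genes), are therefore uncertain as to which copy they belong to.

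Several facts of the whole series touch the results. Each library held 14118972 to 26347581 estimated counts. The deleted gene, Mir324, was not analysed here, and the genotype labels were therefore not checked. All 14 macrophage markers were above 0 in every group. The osteoclast label holds for WT only: Ctsk, the collagen-degrading cathepsin of osteoclasts, was at 15890 to 17390 TPM in WT OC and at 37.0 to 218 TPM in null OC, and Calcr, the calcitonin receptor, was at 0 in all 6 null OC libraries. All 12 osteoclast markers were lower in null OC than in WT OC. The osteoblast cultures also held other cells: macrophage markers summed to 21790 to 26360 TPM in WT OB, against 64020 to 74320 in WT BMM. Osteoclast markers summed to 4218 to 5307 TPM in WT OB and 5495 to 8350 in null OB, against 221 to 248 in WT BMM. In bulk RNA, fewer cells of a type and less RNA per cell cannot be told apart.

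In WT cells the program was active without added interferon, and its members differed widely in level. TPM, a level scaled to transcript length and library depth, compares genes with each other. The highest member was Ifitm3, which blocks the fusion of viruses with the cell membrane, with a median of 1127 TPM in WT BMM, against 349 in WT OC and 1397 in WT OB cultures. Ifi27l2a, a small membrane protein of the ISG12 family, had a median of 684 TPM in WT BMM, and Bst2 (tetherin, which holds budding viruses to the cell surface) had 458. The lowest in WT BMM were Ifi44 at 1.02 and Mx2 at 1.09 TPM. Among the 6 groups, the highest median fell in WT BMM for 27 members, in WT OB for 11 and in WT OC for 1, and in no null group.

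Tested on the counts, WT OB differed from WT BMM in a mixed way. In WT OB 7 members were higher (Ifi44, Ifit1, Ifit3, Ifit3b, Ifitm3, Isg15, Xaf1) and 23 were lower, where 41.5% of all genes tested were higher and 35.3% lower. On the log2 scale Ifi44 rose by 3.86 (SE 0.41, adjusted p = 2.2e-10 in edgeR's quasi-likelihood test with Benjamini-Hochberg adjustment over all genes, the source of every adjusted p unless named otherwise), Ifit3b by 2.19 (SE 0.41, adjusted p = 1.4e-05) and Isg15 by 1.62 (SE 0.34, adjusted p = 7.95e-05). The nuclear body protein Sp100 fell by 2.12 (SE 0.15, adjusted p = 5.91e-15), Ifnar1 by 1.08 (SE 0.07, adjusted p = 1.13e-15) and Ifnar2 by 0.60 (SE 0.06, adjusted p = 1.26e-10). Ifit1, Ifit3 and Ifit3b, whose proteins bind foreign RNA, and Isg15, which is attached to proteins like ubiquitin, were thus higher in the bone chip cultures than in macrophages, while Ifit2 and the receptor chains were lower. Within a WT group, the highest TPM of many members fell in the same library, which was not counted over all genes. Among the 39 members, WT BMM replicate 2 had the highest TPM for 21 and replicate 6 for 14, WT OC replicate 6 for 32, and WT OB replicate 1 for 21.

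**Figure D1:**
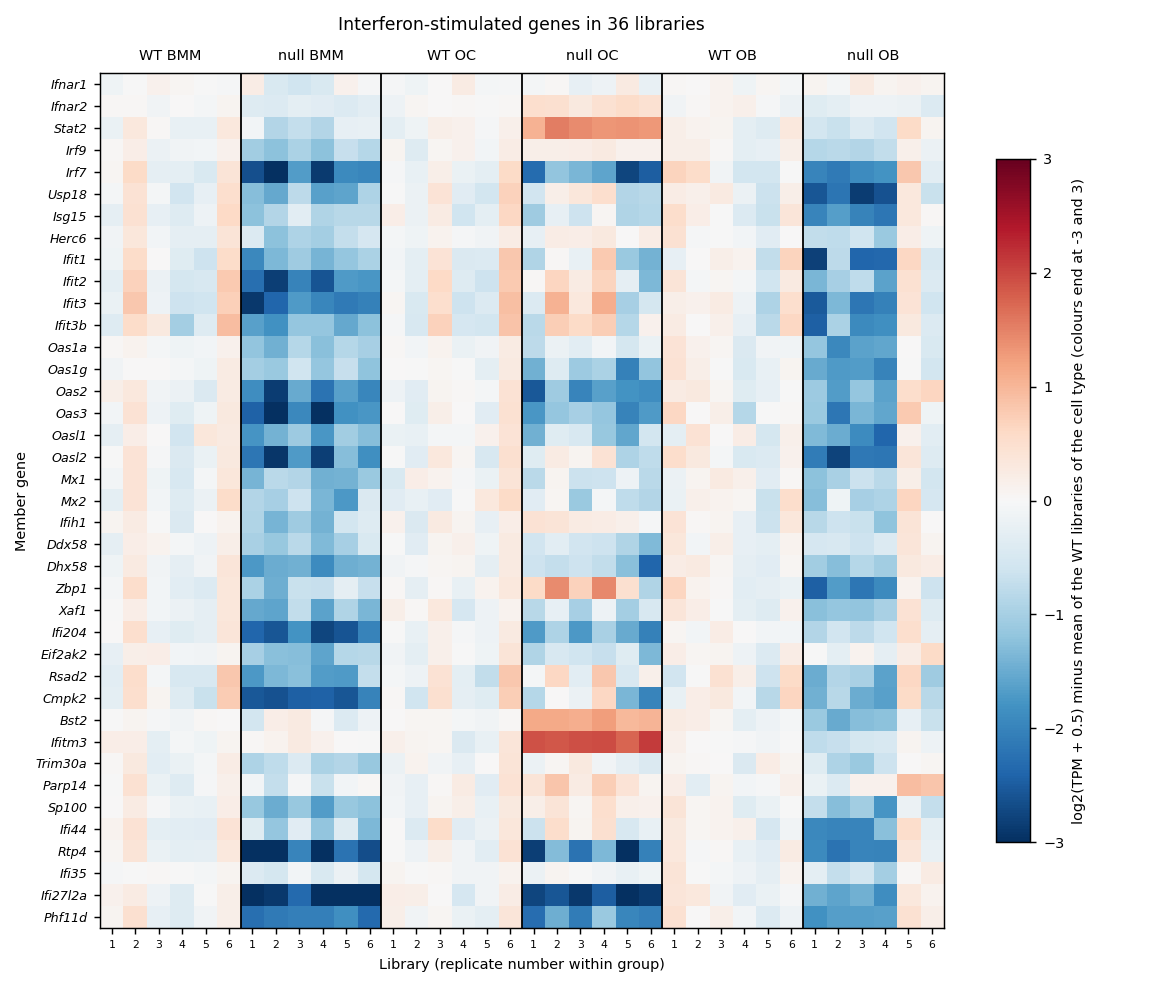
Level of each of the 39 members (rows, ordered by role) in each of the 36 libraries (columns, 6 per group), as log2(TPM + 0.5) minus the mean of the WT libraries of the same cell type; blue is lower and red higher, and colours end at -3 and 3. The null BMM columns are blue in nearly every row, the null OC columns are mixed, and in null OB the columns of replicates 1 to 4 are blue while replicate 5 is not.

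In marrow macrophages the loss of Mir324 went with a lower level of most of the program. In null BMM 34 of the 39 members were lower than in WT BMM and 0 were higher, where 25.4% of all 11925 genes tested were lower and 27.0% higher. In the edgeR test 1 member was higher at an unadjusted p under 0.05, and DESeq2 and limma-voom called 0 members higher and 34 and 35 lower. The median log2 fold change of the members was -1.13, against 0.02 over all genes. The TPM ranges of the 6 null and 6 WT libraries did not overlap for 30 of the 39 members, and for 29.7% of all genes tested. Those past the threshold in neither direction were Bst2, Ifi35, Ifitm3, Ifnar1 and Parp14. Without WT BMM replicate 1 or null BMM replicate 1, 1 member (Ifitm3) was called higher, with a log2 fold change of 0.29 and 0.27.

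Of the receptor chains, Ifnar1 was at 100.1 to 119 TPM (median 108) in WT BMM and 72.1 to 128 (median 92.9) in null BMM, ranges that overlap. Ifnar2 was at 121 to 139 TPM (median 133) in WT and 97.9 to 107 (median 101) in null BMM, with no overlap. Its fall of 0.28 on the log2 scale (adjusted p = 0.00402) was smaller than the median change of the 39 members, -1.13. Some genes further along the pathway changed about as little or less: Stat2 by -0.37, and Bst2, Ifi35, Ifitm3 and Parp14 did not pass.

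Of the transcription factors, Irf7, the inducer of interferon alpha genes, differed most. It was at 42.2 to 85.8 TPM (median 54.1) in WT BMM and 6.65 to 17.7 (median 11.7) in null BMM, so every null library was below every WT library. Irf7 thus fell by 2.18 (SE 0.27, adjusted p = 1.53e-05). Irf9, the DNA-binding part of ISGF3, was at 42.1 to 54.5 TPM (median 46.8) and 20.0 to 29.1 (median 23.6), again without overlap, a change of -0.87. Stat2, its partner, was at 18.2 to 26.9 TPM (median 20.1) and 11.4 to 20.1 (median 15.4), with overlapping ranges and a change of -0.37 (adjusted p = 0.0299). The Stat2 call was lost with a length and GC offset (adjusted p = 0.132), in the fit of all 36 libraries (adjusted p = 0.0515) and without WT BMM replicate 2 or 6 or null BMM replicate 2, 3 or 4.

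The feedback inhibitor Usp18, which strips Isg15 from proteins and shuts the receptor down, was at 14.5 to 30.9 TPM (median 20.9) in WT and 6.75 to 12.5 (median 7.91) in null BMM. Isg15 was at 27.4 to 55 TPM (median 31.4) and 15.1 to 29 (median 19.7), where the highest null library lay above the lowest WT library. Both fell, Usp18 by 1.20 and Isg15 by 0.71 on the log2 scale (adjusted p = 0.000194 and 0.00796). The Isg15 call was lost in the fit of all 36 libraries (adjusted p = 0.0886). Herc6, the mouse enzyme that attaches Isg15, fell by 0.71.

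All 4 IFIT genes and all 6 OAS genes were lower in null BMM, with median log2 fold changes of -1.91 and -1.77. Ifit1 was at 9.29 to 21.7 TPM (median 13.9) in WT and 3.45 to 7.28 (median 5.84) in null BMM. Ifit3 was at 25 to 68.2 TPM (median 34.2) and 4.72 to 11.4 (median 8.73). In neither gene did the genotypes overlap, and the log2 fold changes were -1.26 and -2.16. Oas2, which makes the messenger that activates the RNA-degrading enzyme RNase L, was at 10.4 to 18 TPM (median 14.8) and 1.57 to 4.68 (median 3.44), a change of -2.08 (SE 0.18, adjusted p = 1.8e-07). Oasl2, a relative of that family, was at 65.5 to 118 TPM (median 87.4) and 11.4 to 36.2 (median 21.9), a change of -1.85 (adjusted p = 2.54e-05). The other OAS members fell by between 0.85 (Oas1g) and 2.24 (Oas3).

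The cytosolic RNA sensors were lower too. Ddx58 (RIG-I) was at 18.1 to 25.1 TPM (median 22.3) in WT and 8.44 to 15.8 (median 10.8) in null BMM, and Ifih1 (MDA5) was at 15.3 to 24.9 (median 21.7) and 7.53 to 15.8 (median 10.4). Ddx58 ranges were separate, while those of Ifih1 met at their edge, and both genes fell by 0.77. Dhx58 (LGP2), the regulator of those 2 sensors, had the smallest p of the members, with a change of -1.57 (SE 0.12, adjusted p = 3.06e-08).

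Among the other effectors, Rsad2 (viperin), which makes a chain-terminating nucleotide, was at 6.74 to 17.3 TPM (median 8.45) in WT and 2.59 to 5.64 (median 3.08) in null BMM. Mx1, a GTPase that traps viral nucleocapsids, was at 2.4 to 4.88 TPM (median 3.35) and 0.984 to 1.8 (median 1.21). Both were separate, with changes of -1.59 and -1.17. The largest falls were those of Ifi27l2a (-2.90), Rtp4 (-2.62), Cmpk2 (-2.5), the nucleotide kinase encoded next to Rsad2, and the DNA-binding protein Ifi204 (-2.27). Phf11d, a PHD finger protein, fell by 1.95 (SE 0.16, adjusted p = 5.2e-08).

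Both membrane restriction factors stood outside this pattern. Bst2 was at 431 to 491 TPM (median 458) in WT and 314 to 555 (median 429.6) in null BMM, a change of 0.08 (adjusted p = 0.679). Ifitm3 was at 915 to 1280 TPM (median 1127) and 1111 to 1339 (median 1162), a change of 0.23 (adjusted p = 0.0738). With the length and GC offset both estimates changed sign, to -0.18 and -0.01, and did not pass. Within each gene the genotypes overlap, although both genes are known interferon targets and the promoters of Bst2 and Ifitm3 hold 2 cores each.

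Other lists moved with the members in BMM. Of 14 macrophage markers, 9 were lower and 3 higher in null BMM (median log2 fold change -0.50), but their summed TPM was alike, at 67720 to 70180 in null and 64020 to 74320 in WT BMM. Of 12 proliferation genes, 7 were higher and 0 lower (median 0.31). Of 8 osteoclast markers tested, 5 were lower and 2 higher (median -0.58). Of 6 osteoblast markers tested, 4 were higher and 2 lower (median 1.26), while their summed TPM, nearly all from Spp1, was 1731 to 2457 in null and 5056 to 7979 in WT BMM. The 10 neutrophil markers summed to 44.2 to 107 TPM in null and 2.17 to 3.57 in WT BMM. S100a8 made up most of this sum, at 42.5 to 104 TPM in null BMM, while S100a9 was at 0 in all 12 BMM libraries and Ly6g was at most 0.526 TPM. The part of these lists in the result was not tested.

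**Figure D2:**
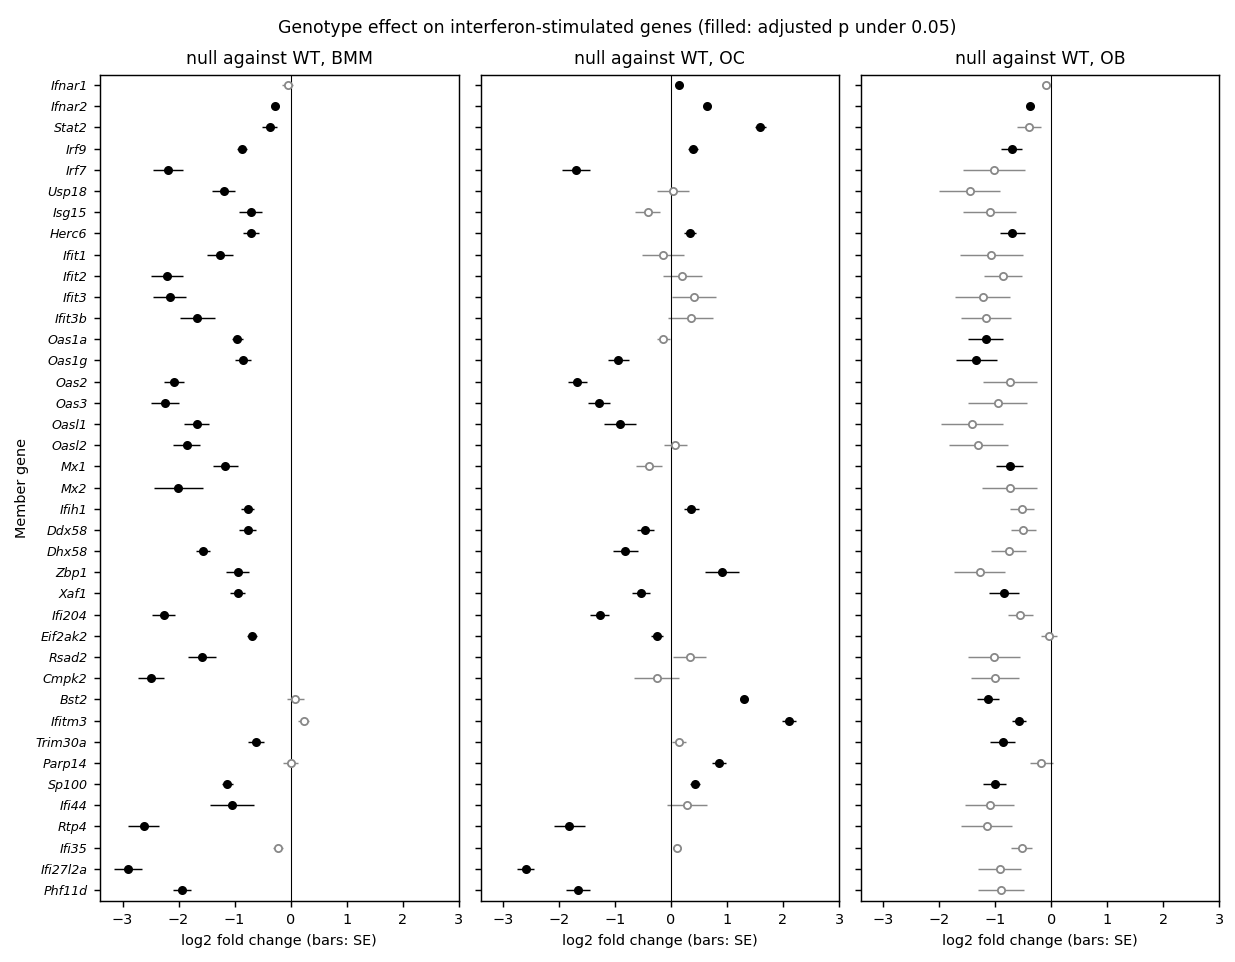
Log2 fold change of null against WT for each member in BMM (left), OC (middle) and OB (right), from the edgeR fit on counts; bars are 1 SE, and filled points have an adjusted p under 0.05 over all genes tested. In BMM nearly all points lie left of 0, in OC they lie on both sides, with Ifitm3 at 2.10 and Ifi27l2a at -2.59, and in OB all lie left of 0 with wide bars; Mx2 was too low to be tested in OC.

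In WT cells most of the program was lower after RANK-L. In WT OC 32 of 39 members were lower than in WT BMM and 0 were higher, where 30.1% of all 12661 genes tested were lower and 30.4% higher. No member was higher at an unadjusted p under 0.05, nor by DESeq2 or limma-voom. The median log2 fold change of the members was -0.93, against 0.00 over all genes. Ifitm3 fell by 1.85 (SE 0.12, adjusted p = 5.08e-13), Stat2 by 1.84 (SE 0.12, adjusted p = 2.85e-13) and Ifnar2 by 1.06 (SE 0.06, adjusted p = 3.23e-14). Stat2 was at 5.23 to 7.52 TPM (median 6.77) in WT OC, below all 6 WT BMM libraries. Ddx58, Ifi44, Irf7, Isg15, Oas1g, Oas2 and Oasl1 did not pass the threshold. Irf7, for example, was at 37.3 to 68.7 TPM (median 42.8) in WT OC, within and just below its range in WT BMM. All 14 macrophage markers were also lower in WT OC (median -2.24), all 12 osteoclast markers were higher (median 9.42), and their part in the result was not tested.

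In null cells few members passed the threshold for the same treatment. Of 39 members, 1 was higher in null OC than in null BMM (Oasl1, log2 fold change 0.98, SE 0.29, adjusted p = 0.0265) and 1 was lower (Bst2, -0.42, SE 0.12, adjusted p = 0.0236), where 6.78% of all genes were higher and 6.07% lower. These calls depended on single libraries. Oasl1 was not called without null BMM replicate 2, 3 or 4 or null OC replicate 2 or 3, and Bst2 was not called without null BMM replicate 2, 3 or 4. Without null OC replicate 6, 2 members were higher, and without null BMM replicate 1 or WT OC replicate 4, 2 were lower. The difference between the genotypes in this step was tested itself: it was above 0 for 26 members and below 0 for 0, where 25.3% of all genes passed above and 26.1% below. Stat2 had a difference of 1.98 (SE 0.17, adjusted p = 1.19e-10), Ifitm3 of 1.88 (SE 0.17, adjusted p = 5.38e-10) and Sp100 of 1.57 (SE 0.15, adjusted p = 6e-10). No member was below 0 at an unadjusted p under 0.05, nor by DESeq2 or limma-voom. The 3 comparisons share libraries with each other and with the genotype comparisons, so they are not separate evidence.

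**Figure D3:**
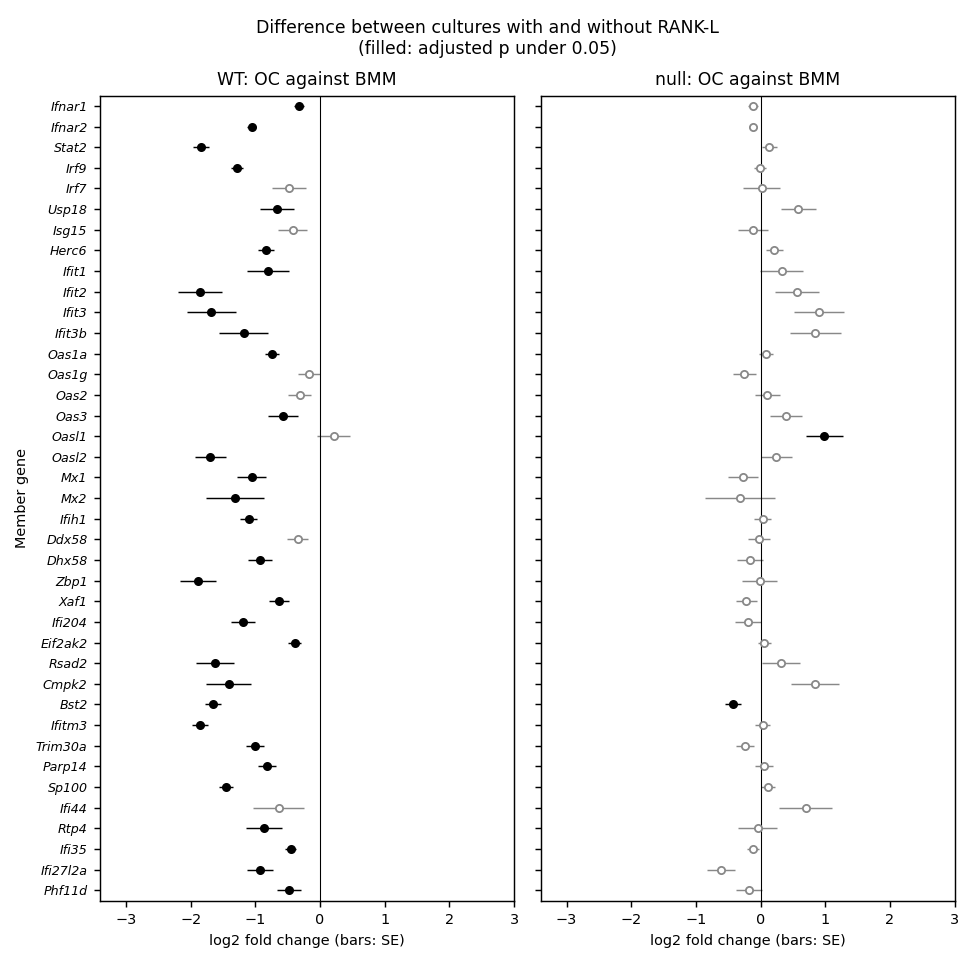
Log2 fold change of cultures with RANK-L (OC) against cultures without (BMM) for each member, in WT (left) and null cells (right), from the edgeR fit of the 24 libraries; bars are 1 SE, and filled points have an adjusted p under 0.05. In WT 32 points are filled and left of 0, while in null cells only Oasl1 at 0.98 and Bst2 at -0.42 are filled.

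Within the RANK-L cultures the members parted in both directions. Of 38 members tested, 11 were higher in null OC (Bst2, Herc6, Ifih1, Ifitm3, Ifnar1, Ifnar2, Irf9, Parp14, Sp100, Stat2, Zbp1) and 13 were lower (Ddx58, Dhx58, Eif2ak2, Ifi204, Ifi27l2a, Irf7, Oas1g, Oas2, Oas3, Oasl1, Phf11d, Rtp4, Xaf1). Over all 12121 genes tested, 32.4% were higher and 33.1% lower, so these counts are near the background. The median log2 fold change of the members was 0.06, against -0.03 over all genes, and TPM ranges were separate for 15 of 38 members and for 44.7% of all genes tested. The 13 lower members were all lower in BMM as well, and 7 of the 11 higher ones were lower in BMM (Herc6, Ifih1, Ifnar2, Irf9, Sp100, Stat2, Zbp1). Over all genes tested in both cultures, 11.6% were lower in both and 5.97% were lower in BMM and higher in OC. The BMM and OC genotype comparisons share no libraries, although the labels do not say whether the same marrow gave both.

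The receptor and the ISGF3 parts were on the higher side. Ifnar2 was at 64 to 74.5 TPM (median 73) in WT OC and 87.4 to 105 (median 99.1) in null OC, without overlap, a change of 0.65 (adjusted p = 5.27e-08). Stat2 was at 14.1 to 20.0 TPM (median 17.2) in null OC against 5.23 to 7.52 in WT OC, a change of 1.60 (SE 0.09, adjusted p = 1.83e-10). Irf9 was at 16.2 to 25 TPM (median 22.4) in WT and 23.4 to 25.9 (median 24.1) in null OC, a change of 0.39 with overlapping ranges.

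Ifnar1 was at 85.9 to 111 TPM (median 91.2) in WT and 78.8 to 113 (median 86.4) in null OC, so its TPM median was lower although the count fit gave 0.15 (adjusted p = 0.0447). That call was lost without the low-count filter (adjusted p = 0.0731), with an offset for average transcript length (0.053) and with a replicate block (0.0898). It was also lost in the fit of all 36 libraries (0.102) and when any 1 of 7 libraries was left out (WT OC replicates 1, 2, 3, 5 and 6, null OC replicates 1 and 2).

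Irf7 went the other way from its partners. It was at 37.3 to 68.7 TPM in WT OC and at 6.37 to 20.1 TPM (median 12) in null OC, a change of -1.69 (adjusted p = 3.42e-05) with no overlap. Oas2 was at 9.94 to 17.3 TPM (median 12.5) in WT and 1.75 to 5.83 (median 3.23) in null OC, a change of -1.67 (SE 0.17, adjusted p = 1.75e-07). Null libraries lay below WT libraries in both genes, as they had in BMM. Ifi27l2a was at 262 to 438 TPM (median 397) and 41.6 to 66.4 (median 52.6), a change of -2.59 (SE 0.15, adjusted p = 1.38e-10), and Phf11d fell by 1.66 (SE 0.21, adjusted p = 2.83e-06).

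Both membrane restriction factors were higher in null OC. Ifitm3 was at 246 to 428 TPM (median 349) in WT OC and 1109 to 1414 (median 1262) in null OC, a change of 2.10 (SE 0.13, adjusted p = 4.61e-10). Bst2 was at 146 to 165 TPM (median 161) and 312 to 375 (median 340.5), a change of 1.31 (SE 0.07, adjusted p = 3.97e-11). In both, every null library exceeded every WT library. Ifitm3 in null OC lay at the level of BMM of either genotype, while Bst2 lay between WT OC and WT BMM.

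The IFIT genes and several relatives did not pass in either direction. Ifit1 was at 6.48 to 16.1 TPM (median 7.85) in WT and 3.04 to 15.8 (median 6.12) in null OC, and Ifit3 at 8.33 to 24.9 (median 11.6) and 6.32 to 28.4 (median 13.1). Isg15 was at 19.1 to 45.1 TPM (median 29.4) and 13.5 to 30.0 (median 17.2), Usp18 at 9.82 to 24.2 (median 13.7) and 7.78 to 21.1 (median 13.2). These 4 genes spread widely within each group and overlap between them. Rsad2 was at 1.84 to 6.31 TPM (median 3.13) and 2.28 to 6.31 (median 3.51), Mx1 at 1.19 to 2.51 (median 1.86) and 0.824 to 1.94 (median 0.991), and Oasl2 at 20.6 to 40.7 (median 29.5) and 15.1 to 39.4 (median 26.8). Isg15 passed as lower without WT OC replicate 4 or null OC replicate 4 (-0.53 and -0.59), and Mx1 passed as lower without null OC replicate 2 (-0.54).

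The 2 main RNA sensors parted in these cultures. Ddx58 was at 16.3 to 25.2 TPM (median 21.2) in WT and 8.02 to 16.7 (median 13.5) in null OC, a change of -0.46 (adjusted p = 0.0138). Ifih1 was at 6.8 to 11.4 TPM (median 10.1) and 9.15 to 12.7 (median 11.1), a change of 0.36 (adjusted p = 0.0274). The ranges of both genes overlap between genotypes. The Ifih1 call was lost in the fit of all 36 libraries (adjusted p = 0.0697) and without WT OC replicate 2 or 5 or null OC replicate 2 or 3.

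Cell type markers moved with genotype here. Of 14 macrophage markers, 11 were higher and 1 lower in null OC (median 1.61), and their summed TPM was 60420 to 72730 in null and 19940 to 22570 in WT OC. The 12 osteoclast markers were lower (median -6.66). Of 6 osteoblast markers tested, 4 were higher and 0 lower (median 2.04), and neutrophil markers summed to 41.4 to 55.9 TPM in null and 2.30 to 4.24 in WT OC. The part of these markers in the result was not tested.

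**Figure D4:**
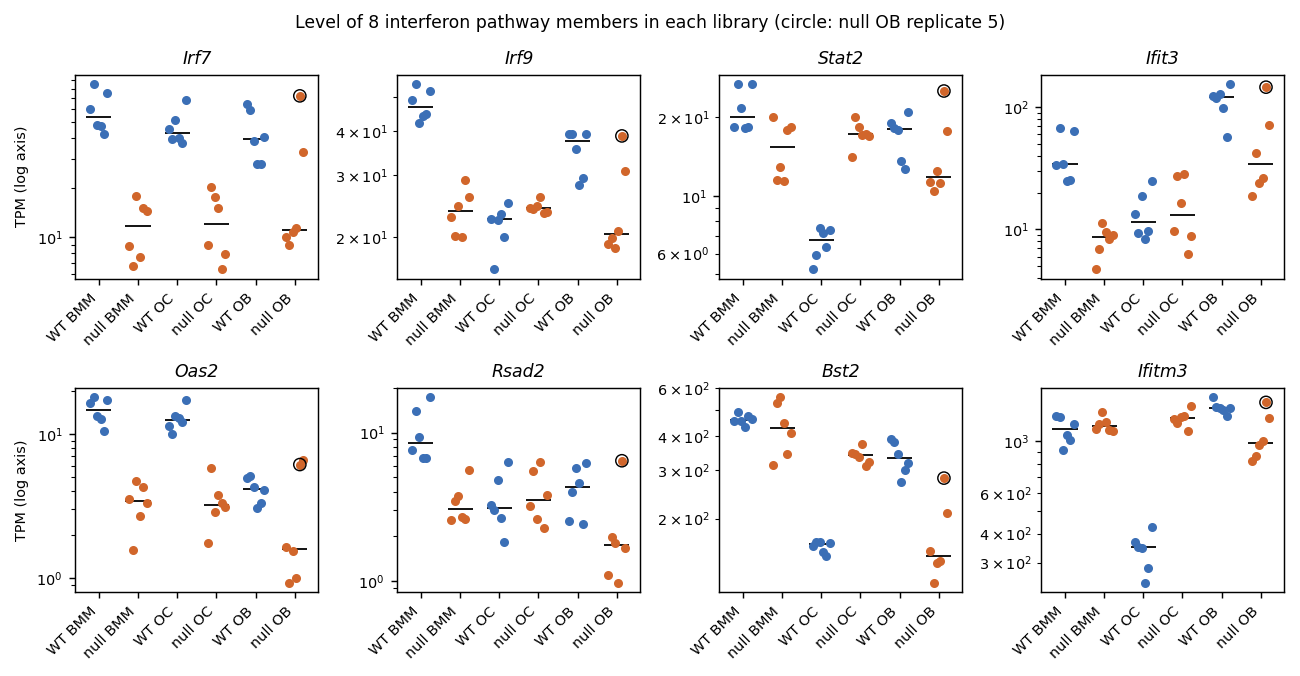
TPM (log axis) of 8 members in each of the 36 libraries, with blue points for WT, orange points for null and a line at the group median; the circle marks null OB replicate 5. Irf7 and Oas2 are low in null BMM and null OC, Stat2, Bst2 and Ifitm3 are lower in WT OC than in WT BMM and null OC, and in null OB the circled library lies within or above the WT OB range in all 8 panels.

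In the osteoblast cultures the null libraries were divided. With all 12 libraries, 11 of 39 members were lower in null OB (Bst2, Herc6, Ifitm3, Ifnar2, Irf9, Mx1, Oas1a, Oas1g, Sp100, Trim30a, Xaf1) and 0 were higher, where 16.9% of all 13607 genes tested were lower and 15.5% higher. No member was higher at an unadjusted p under 0.05, nor by DESeq2 or limma-voom. All 39 log2 fold changes were below 0, with a median of -0.89 against 0.00 over all genes, and no member had separate TPM ranges, where 16.6% of all genes tested had. Null OB replicate 5 stood apart: it had the highest TPM of its group for 33 of 39 members and lay above all 6 WT OB libraries for 17, within their range for 21 and below for 1. Replicates 1 to 4 each lay below all WT OB libraries for 35 members. Replicate 6 was between, below for 13 and within the range for 23. These per-library counts were made for the members only, with no share over all genes beside them.

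Without null OB replicate 5, 36 of 39 members were lower and 0 higher, where 16.5% of all genes tested were lower and 14.8% higher. That library was singled out by the levels of these same members, so leaving it out favours lower calls. Values without it, here and below, are a description and not separate support. With that library left out and an offset for length and GC content, 34 were lower, where 9.31% of all genes were. DESeq2 on all libraries called 23 lower (17.4% of all genes), limma-voom with quality weights 36 (18.6%) and the fit of all 36 libraries 27 (14.2%). Without null OB replicate 6 the count was 14 (16.4% of all genes). The null libraries other than replicate 5 lay below all WT libraries for 12 members: Usp18, Oas1a, Oas1g, Mx1, Zbp1, Xaf1, Ifi204, Rsad2, Cmpk2, Bst2, Ifitm3 and Sp100. The same held for 3.20% of all genes tested.

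The transcription factors show the difference between libraries. Irf7 was at 27.8 to 64.7 TPM (median 39.4) in WT OB and at 8.98 to 72.4 (median 11.1) in null OB, where replicate 5 was the 72.4 and replicate 6 was at 32.9. Its log2 fold change was -1.02 with all libraries (adjusted p = 0.181) and -1.77 without replicate 5 (adjusted p = 0.00807). Irf9 was at 28.2 to 39.3 TPM (median 37.4) and 18.6 to 38.7 (median 20.3), a change of -0.71 (adjusted p = 0.0101). Stat2 was at 12.7 to 21 TPM (median 18.1) and 10.4 to 25.3 (median 11.8), and its change of -0.40 (adjusted p = 0.194) became -0.63 without replicate 5 (adjusted p = 0.00586). In each of these 3 factors the highest null value was that of replicate 5.

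Among the effectors, Usp18 was at 21.3 to 40.9 TPM (median 38) in WT and 4.25 to 42 (median 6.15) in null OB, and Isg15 at 71.5 to 162 (median 121) and 24.7 to 141 (median 32). Ifit1 was at 30.4 to 81.5 TPM (median 53.3) and 6.86 to 78.9 (median 19.6), and Ifit3 at 57.5 to 156 (median 122) and 18.8 to 146 (median 34.5). In all 4 the top of the null range was replicate 5, and none passed in the edgeR test of the 12 libraries. Without it, the log2 fold changes were -2.19 for Usp18, -1.53 for Isg15, -1.72 for Ifit1 and -1.83 for Ifit3, all past the threshold (adjusted p = 0.0027, 0.0212, 0.0191 and 0.00442).

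Oasl2 was at 28.2 to 56.3 TPM (median 40.2) in WT and 5.25 to 50.9 (median 8.64) in null OB. Oas2 was at 3.06 to 5.09 TPM (median 4.18) and 0.93 to 6.61 (median 1.6), and here replicates 5 and 6 both exceeded every WT library, at 6.13 and 6.61. Without replicate 5 Oasl2 passed (-1.93, adjusted p = 0.00644) and Oas2 did not (-1.17, adjusted p = 0.0613). Rsad2 was at 2.44 to 6.2 TPM (median 4.31) and 0.98 to 6.47 (median 1.75), and Mx1 at 1.65 to 2.8 (median 2.36) and 0.671 to 2.58 (median 1.16). Rsad2 changed from -1.03 (adjusted p = 0.109) to -1.67 (adjusted p = 0.000873) without that library, and Mx1, already past the threshold at -0.75, to -0.96. The Mx1 call was lost without WT OB replicate 2 or 6 or null OB replicate 2 (adjusted p = 0.0543, 0.0537 and 0.0512).

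The sensors changed less. Ddx58 was at 16.6 to 26 TPM (median 20.5) in WT and 13.1 to 26.4 (median 14.9) in null OB, and Ifih1 at 6.36 to 13.7 (median 10.7) and 4.18 to 13.6 (median 6.38). Neither passed with all libraries, and without replicate 5 the changes were -0.70 (adjusted p = 0.0121) and -0.72 (adjusted p = 0.00887).

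The receptor chains and membrane factors depended less on that library. Ifnar2 was at 89.7 to 111 TPM (median 101) in WT and 75.2 to 89.9 (median 85.3) in null OB, a change of -0.38 (SE 0.07, adjusted p = 0.000705). Ifnar1 was at 48.1 to 56.6 TPM (median 53.9) and 50.7 to 64.1 (median 56.1), a change of -0.09 (adjusted p = 0.245), with a TPM median on the other side of WT, and it passed as lower with the length and GC offset (-0.22, adjusted p = 0.00921). Bst2 was at 273 to 391 TPM (median 332) and 117 to 281 (median 146), a change of -1.14 (SE 0.19, adjusted p = 0.000931). Ifitm3 was at 1291 to 1551 TPM (median 1397) and 823 to 1472 (median 984), a change of -0.58 (SE 0.12, adjusted p = 0.00266). For Ifnar2 and Bst2 the genotypes met only at the edge of their ranges, and Ifitm3 was lost with the length and GC offset (-0.24, adjusted p = 0.258). Without replicate 5 the changes were -0.39, -1.34 and -0.71.

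The median over members shows the libraries at a glance. As log2 CPM, the depth-scaled count, minus the WT OB mean, it was -1.5, -1.21, -1.41 and -1.77 in null OB replicates 1 to 4, 0.20 in replicate 5 and -0.51 in replicate 6, against -0.34 to 0.29 in the 6 WT OB libraries. Macrophage markers were summarised in the same way. Their median was -0.57 in replicate 5 and -0.81 to -0.35 over all 6 null OB libraries, and their summed TPM in replicate 5, at 12670, was the lowest of the 12 OB libraries. Of 14 macrophage markers 11 were lower in null OB (median -0.61), and of 12 osteoblast markers 6 were higher and 1 lower (median 0.57). Of 12 osteoclast markers 5 were higher and 0 lower (median 0.31). The part of these markers in the result was not tested. In BMM the same median over members was -1.28 to -0.73 in null libraries and -0.32 to 0.35 in WT, and in OC it was -0.52 to 0.36 and -0.20 to 0.36.

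**Figure D5:**
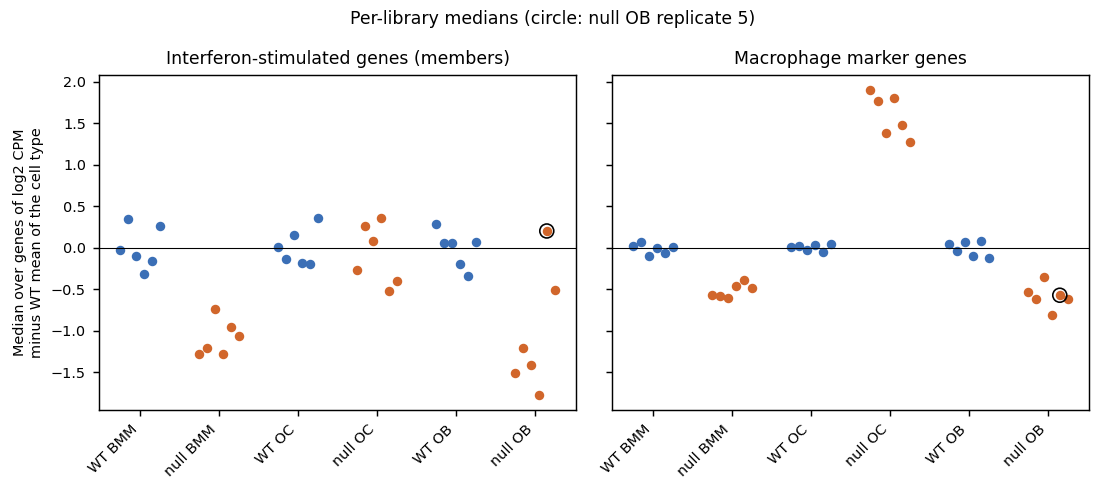
Median over the members (left) and over the 14 macrophage markers (right) of log2 CPM minus the mean of the WT libraries of the cell type, 1 point per library; blue is WT, orange is null, and the circle marks null OB replicate 5. The circled library is at 0.20 for the members, above the other 5 null OB libraries, and at -0.57 for the macrophage markers, among them.

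The genotype effect was then compared between cultures in a fit of all 36 libraries. Between OB and BMM the effect was higher in OB for 9 members and lower for 2, where 21.6% of all genes were higher and 24.3% lower. Ifi27l2a (difference 1.99, SE 0.40, adjusted p = 0.000139) and Ifi204 (1.73, SE 0.29, adjusted p = 1.01e-05) were lowered less in OB than in BMM, and the change of Bst2 was more negative in OB (-1.20, SE 0.22, adjusted p = 2.66e-05). The 9 became 3 without null OB replicate 5. Between OB and OC the effect was higher in OB for 2 members and lower for 19, where 27.8% and 27.4% of all genes were. The smallest p belonged to Ifitm3 (-2.67, SE 0.18, adjusted p = 4.97e-15), Ifnar2 (-1.01, SE 0.09, adjusted p = 5.77e-12) and Bst2 (-2.43, SE 0.22, adjusted p = 1.39e-11). The 2 higher members (Ifi204, Ifi27l2a) became 1 when any of 10 libraries was left out, null OB replicates 5 and 6 among them.

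By name, 2 members (Oas1g and Xaf1) were lower in null cells of all 3 cultures, as were 1.14% of the genes tested in all 3. In BMM and OC 13 members were lower in both (11.6% of all genes), and in BMM and OB 9 were (4.19%). Herc6, Ifnar2, Irf9 and Sp100 were lower in null BMM, higher in null OC and lower in null OB (2.13% of all genes). The OB counts depended on null OB replicate 5. Without it, 11 members were lower in all 3 cultures (1.26% of all genes), 32 were lower in BMM and OB (4.44%), and 7 were lower in BMM, higher in OC and lower in OB (2.10%). Calls were also counted by the response element core, without a test: in BMM 13 of 15 members with it and 12 of 14 without it were lower, in OC 4 were higher and 4 lower with it against 5 and 4 without, and in OB 5 were lower in each set. Without null OB replicate 5, 14 of 15 members with the core and 13 of 14 without it were lower in OB.

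The interferon genes that were listed gave almost no RNA. The list held 13 interferon genes and not the whole family. Of these, 12 had at most 3 counts in every library, the floor used here, and 7 had 0 in all 36. Ifnb1, the interferon that RANK-L is known to induce, had at most 1 count. Ifnz, an interferon zeta gene, was the exception, with 0.173 to 1.56 TPM (up to 28 counts) in null OB and 0 to 0.575 TPM (up to 11 counts) in WT OB. None passed the low-count filter, so no ligand was tested. Siglech, a marker of plasmacytoid dendritic cells, the main makers of interferon alpha, was at most 0.455 TPM in any library. It is 1 of 8 listed markers of these cells, of which 5 or 6 were below 1 TPM throughout each group. The 8 together summed to between 30.6 TPM in a null OC library and 161 TPM in a null OB library.

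Genes that carry the receptor signal were counted next. Of 16 in that list (Stat2, Irf9 and both receptor chains among them), 5 were higher and 5 lower in null BMM, 11 higher and 0 lower in null OC, and 1 higher and 4 lower in null OB. Over all genes tested, 27.0% were higher and 25.4% lower in BMM, 32.4% and 33.1% in OC, and 15.5% and 16.9% in OB, so the counts in BMM and OB are near those shares. The kinase Tyk2 fell by 0.43 in null BMM. Socs3 and Socs1, inhibitors of cytokine receptor kinases, rose in both marrow cultures. Socs3 was at 2.63 to 4.44 TPM in WT BMM and 24.4 to 43.9 in null BMM, and at 3.62 to 5.24 in WT OC and 29.3 to 48.2 in null OC, with changes of 3.38 and 3.33. Socs1 rose by 1.70 and 1.36. In OB neither passed, and both were more abundant in either genotype than in WT BMM, Socs3 at 53.1 to 155 TPM.

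Genes that sense nucleic acid and induce interferon were counted against the same shares. Of 21 tested, 10 were lower and 5 higher in null BMM, 3 lower and 14 higher in null OC, and 6 lower and 0 higher in null OB. The 5 higher in null BMM were Traf3 (1.71), Ikbke (1.37), Irf3 (0.59), Mavs (0.29) and Myd88 (0.27). Ikbke also rose by 2.63 in null OC. The genes described next are a selection from the 10 lower in null BMM. Trim25, the ligase that activates RIG-I, fell by 2.5 in BMM, 2.06 in OC and 0.49 in OB. Tlr7, the endosomal sensor of single-stranded RNA, was at 93.7 to 110 TPM in WT BMM, 28.8 to 48.7 in null BMM, 13.5 to 21.6 in WT OC and 31.9 to 46.6 in null OC. It thus fell by 1.29 in null BMM, rose by 1.5 in null OC and fell by 0.75 in null OB. Irf8, a factor of the monocyte lineage that restrains osteoclast formation, changed by -0.50, 2.65 and -0.53 in the same order, and Tmem173 (STING) by -0.70 and 1.37 in the marrow cultures.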

How the data were processed

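The submitters quantified each library against transcripts and deposited 1 table per library with estimated counts and TPM per Ensembl transcript, and their processing notes name kallisto, DESeq2 and GRCh38, a human build, although the identifiers are mouse. Versions and the annotation are not given in the sources used here. Of the labels' protocols, total RNA was extracted with mirVana and libraries were made with an NEB low input RNA kit. Per the file headers, estimated counts and TPM are the deposited values, which were summed here over the transcripts of each gene with GENCODE M21 (GRCm38). Of 88198 transcripts 97.54% were matched, which left 0.629 to 0.974% of counts out and gave 13985009 to 26100581 counts per library over 30205 genes.

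Gene sums were rounded and tested with edgeR 4.0.16 (quasi-likelihood, filterByExpr, TMM, robust) in R 4.3.3, with Benjamini-Hochberg adjustment over all genes tested and a threshold of 0.05. Genotypes were compared within each culture's 12 libraries, RANK-L and its interaction with genotype over 24, and the other comparisons over 36. Log2 CPM used a prior count of 2. No replicates of a group were alike within sampling noise (smallest chi-square per gene 3.46). Replicate numbers shared between groups did not pair libraries: the highest correlation of same-numbered deviations was 0.103. Alternatives were size factors by relative log expression, no low-count filter, DESeq2 1.42.0, limma-voom (limma 3.58.1) with quality weights, a replicate block, an average transcript length offset, a length and GC offset (lowess span 0.3), a fit of all libraries, and leaving out each library. The fits were tested on simulated data. Members and lists were chosen with earlier results of these data known. All 39 members are named; per-library levels are given for 17 of them picked by role, and in each comparison up to 3 called members in each direction, those of lowest p at 1 CPM or more, are given in full. Promoter sequences are from RefSeq (GRCm38.p6). The result of another gene of the receptor pathway was left out and is not reported here.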

Additional observations from a re-analysis of the deposited data

Results flagged for a closer look

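Among 108 sets of 6 values, 17 members and the median over members in each of 6 groups, 6 had a highest or lowest library far from the rest by Dixon's test, where chance flags about 1 in 20. The median over members was flagged in no group, null OB included. Rsad2 in null OB replicate 5 was at 6.47 TPM, with the other libraries at 0.98 to 1.97, and Mx1 in the same library was at 2.58 TPM, with the others at 0.671 to 1.38. Isg15 in null BMM replicate 3 was at 29 TPM (others 15.1 to 20.1). Ifnar1 in WT OC replicate 4 was at 111 TPM (others 85.9 to 93.7). Ifnar2 was at 64 TPM in WT OC replicate 1 (others 71.5 to 74.5) and at 87.4 TPM in null OC replicate 3 (others 98.5 to 105).

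The genotype effect differed between cultures by a test of the difference itself. From BMM to OC the differences on the log2 scale were 1.98 for Stat2, 1.88 for Ifitm3 and 1.57 for Sp100. From BMM to OB they were 1.73 for Ifi204, 1.99 for Ifi27l2a and -1.20 for Bst2. From OC to OB they were -2.67 for Ifitm3, -1.01 for Ifnar2 and -2.43 for Bst2.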

How the results depend on the processing

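The count of members lower in null OB was 11 with all libraries and rose to 23 with DESeq2, 36 with limma-voom, 27 in the fit of all 36 libraries and 34 with null OB replicate 5 left out under the length and GC offset. Leaving out 1 library at a time gave 8 to 36. Members higher in null BMM were 0 to 1 when 1 library was left out. In null OC against null BMM, the higher member was lost with limma-voom (0) and 0 to 2 were higher when 1 library was left out. DESeq2 called 2 members lower there, and leaving out 1 library gave 0 to 2. The genotype effect was higher in OB than in BMM for 4 members with limma-voom and for 3 to 11 when 1 library was left out. It was higher in OB than in OC for 1 member without the low-count filter, with limma-voom, with either offset and with the replicate block, and for 1 to 3 when 1 library was left out. The cause of these shifts was not tested. No called value changed direction; the uncalled estimates of Ifnar1, Ifitm3 and Bst2 in null BMM changed sign with the length and GC offset (0.08, -0.01 and -0.18). With the replicate block, 33 members were lower in null BMM, 9 were higher and 12 lower in null OC, and 12 were lower in null OB; the block also ended the call of Ifnar1 in null OC (0.14, adjusted p = 0.0898). Leaving out 1 library gave 32 to 34 lower in null BMM, 9 to 11 higher and 12 to 13 lower in null OC, and 28 to 34 lower in WT OC against WT BMM. Of 75 results for single members, 49 were unchanged under every alternative. Unchanged means that a called value kept its direction and call. An uncalled one stayed uncalled and within 1 SE of its main estimate. Depth limits the listed interferon genes, of which 12 of 13 had at most 3 counts in every library.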

Other observations

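A wider list of 70 other interferon-stimulated genes, none of them among the 39, was described in the same way. In null BMM 39 of 66 tested were lower and 7 higher (median log2 fold change -0.43), where 25.4% and 27.0% of all genes were. Gbp9, a guanylate-binding protein, fell by 2.86 and Slfn5 by 2.09, while Ifitm1, a relative of Ifitm3, rose by 3.08 and the chemokine Ccl5 by 1.99. In null OC 27 of 67 were higher and 14 lower (median 0.19), where 32.4% and 33.1% of all genes were, with Ifitm6 up by 3.40 and Gbp7 down by 2.45. In null OB 32 of 65 were lower and 1, the RNA exonuclease Xrn1, was higher at 0.40 (median -0.60), where 16.9% of all genes were lower and 15.5% higher. B2m, the light chain of class I molecules, fell there by 0.75. In WT OC against WT BMM 48 of 68 were lower and 5 higher, where 30.1% and 30.4% of all genes were. The 5 included the chemokine Cxcl10 at 1.46. Per library, the median over this list was 0.09 in null OB replicate 5 and -0.97 to -0.31 in the other 5 null OB libraries. The Gbp9, Slfn5, Ifitm1, Ccl5, Ifitm6, Gbp7, Xrn1, B2m and Cxcl10 values were chosen after they were seen.

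The level of Ifnar2 came mostly from a short transcript. Ifnar2-203, which encodes 248 residues, held a median of 72.4 to 80.3% of Ifnar2 TPM over the 6 groups, and Ifnar2-201, which encodes 513 residues, held 12.3 to 20.6%. The Ifnar2 changes given above are those of the gene sum, and its transcripts were not tested singly. Of Mx1, a transcript annotated for nonsense-mediated decay, Mx1-203, held a median of 54.2 to 100% of the TPM. Mx1-201, which encodes 627 residues, held a median of 2.85% in WT OB and 0 in every other group. The Mx1 values given above are gene sums and do not measure that transcript.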
